A study of Homo sapiens with 6 samples.

Results

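The enzymes that carry squalene to cholesterol were followed on 6 Affymetrix expression arrays of human breast cancer cells, 3 of control cells and 3 labelled S153E-RKIP. The set was defined as every probe set that the platform annotation pairs with FDFT1, SQLE, LSS, CYP51A1, MSMO1, NSDHL, EBP, SC5D or DHCR7, probe sets with more than 1 gene symbol included. It held 20 of the 54613 probe sets tested. They cover 8 of the 9 enzymes, because no probe set in the annotation used here is paired with FDFT1, and its level was not analysed here. A probe set is a group of short probes on the array that together give 1 value for a transcript. SQLE and EBP have 4 each, LSS has 3, CYP51A1, NSDHL, SC5D and DHCR7 have 2 each, and MSMO1 has 1. Both probe sets of CYP51A1 also carry the symbol of LRRD1, a neighbouring gene.

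The cells are the 1833 subline of MDA-MB-231, a line known for growing in bone. In 1 group they were transduced with a lentiviral vector for S153E-RKIP, a form of the Raf-1 inhibitor RKIP that the series describes as more potent, and selected and kept in puromycin. The controls carried the vector, per the series' design text, and all cells grew in medium with serum. The labels do not say whether the transduced cells are a pool or a clone. The 3 samples in a group are named biological replicates, but no label tells how they were obtained, so the p-values measure only the spread between samples and part of it may be technical. The comparison addresses which genes RKIP regulates in these cells. A level is given as the log2 signal from RMA, and a difference is the mean of the arrays labelled S153E-RKIP minus that of the control arrays.

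Cholesterol is made from acetyl-CoA, first through mevalonate to farnesyl diphosphate. FDFT1 joins farnesyl units into squalene, SQLE puts an epoxide on it, and LSS folds the product into lanosterol, the first sterol. CYP51A1, MSMO1 and NSDHL then help to strip methyl groups from the ring system, EBP moves a double bond, SC5D adds one, and DHCR7 reduces one to give cholesterol. The genes of this route are known targets of the SREBP transcription factors, which are held in the endoplasmic reticulum by INSIG proteins when sterols are plentiful and are released when sterols are scarce. EBP, DHCR7 and other enzymes of the route are also known as the genes behind inherited disorders of sterol synthesis.

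The labels were checked on the arrays before the enzymes were read. PEBP1, the gene of RKIP, read 11.77, 11.73 and 11.77 in control and 11.74, 11.64 and 11.61 on the arrays labelled S153E-RKIP, and none of its 3 probe sets was called. Whether these probe sets would see the introduced RNA is unknown here. One label field of the same arrays names a short hairpin RNA against HMGA2, and HMGA2 differed by -0.023 (adjusted p = 0.882). Neither transcript differed past the threshold, so these values bear out neither label, and every direction given here rests on the label S153E-RKIP. Of the cell type markers, the 6 of mesenchymal-like basal breast cancer cells were bright, with control means from 11.50 for EGFR to 14.47 for VIM. Control means of CDH1, FOXA1 and PGR, genes of luminal cells, were 4.14, 4.33 and 4.02, those of the luminal genes GATA3 and EPCAM were 8.16 and 8.30, and none of the 18 measured markers of luminal, blood, endothelial, fibroblast or liver cells was called. ESR1 and ERBB3, also luminal, had control means of 6.60 and 6.12. The differences of the 3 blood cell markers were 0.10 for PTPRC, 0.29 for CD3E and 0.16 for CD14. Those of the 3 fibroblast markers ran from 0.058 for DCN to 0.21 for COL1A1. The 6 basal markers were not called either, with differences from -0.26 for EGFR and CAV1 to 0.13 for CD44.

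On the arrays labelled S153E-RKIP the transcripts of most of these enzymes were lower. MSMO1, the sterol methyl oxidase, fell 2.88-fold, and SC5D and DHCR7, which act in the last steps, fell 2.11-fold and 2.13-fold at their brighter probe sets. Both probe sets annotated to CYP51A1 fell, by 2.05-fold and 1.97-fold, SQLE fell 1.94-fold at 1 of its 4 probe sets, and LSS fell 1.54-fold and 1.53-fold at 2 of its 3. NSDHL fell 1.43-fold at 1 of its 2, and no probe set of EBP passed the test. In all, 10 of the 20 probe sets were called lower and none higher (limma, adjusted p under 0.05 over all probe sets), where 0.685% of all probe sets were called lower and 0.366% higher. These 10 belong to 7 of the 8 enzymes.

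At 16 of the 20 probe sets all 3 arrays labelled S153E-RKIP lay below all 3 control arrays, which held for 9.06% of all probe sets (8.09% in the other direction, which none of the 20 showed). The difference was below 0 at 19 of the 20, and the median over the 20 was -0.56, beside 0.010 over all probe sets. When each gene was read by the brightest probe set of its own, 5 of the 7 enzymes that have one were called lower (limma, adjusted p under 0.05 over 19775 genes), where 1.21% of all genes were and 0.688% were called higher. These were SQLE, LSS, MSMO1, SC5D and DHCR7, with NSDHL (adjusted p = 0.0537) just outside. The groups did not overlap in any of the 7, which held in this direction for 10.8% of all genes and in the other for 9.31%.

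**Figure D1:**
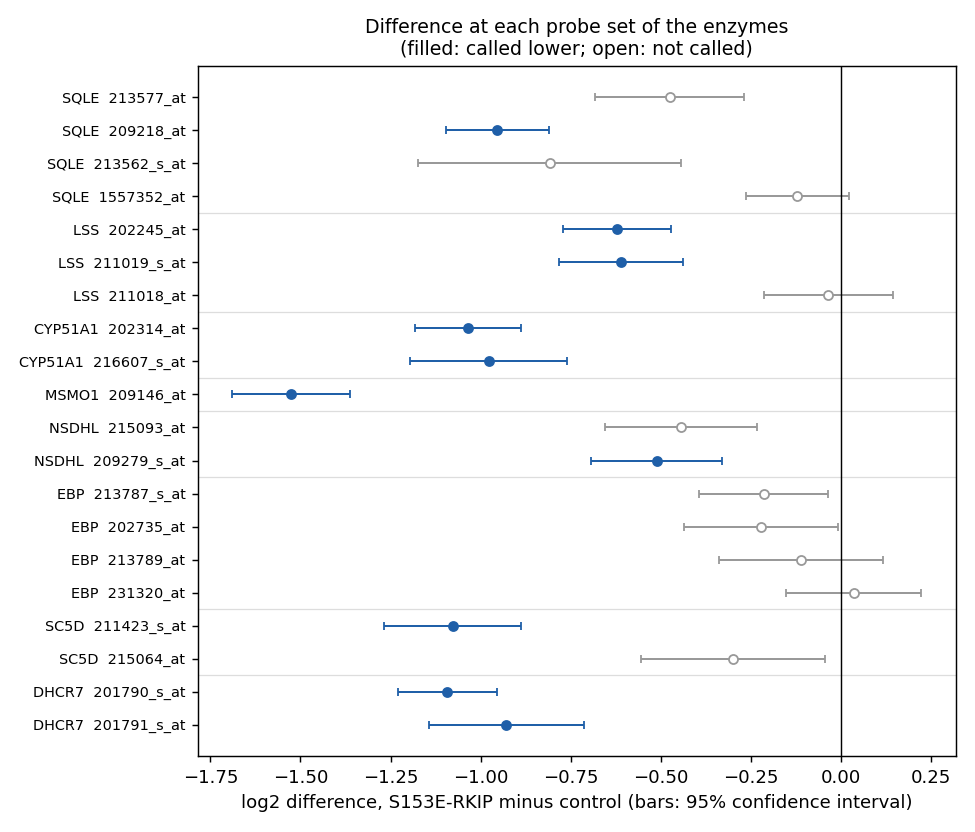
Difference between the arrays labelled S153E-RKIP and the control arrays at each of the 20 probe sets, in pathway order from SQLE to DHCR7, on the log2 scale. Points are limma estimates from 3 arrays a group and bars are 95% confidence intervals; filled points were called lower at an adjusted p under 0.05. The 10 filled points run from -1.53 for MSMO1 to -0.51 for NSDHL, and the 4 points of EBP lie between -0.22 and 0.034.

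The genes that moved together were set beside the sequence before their start sites, since SREBP factors are known to act at promoters together with NF-Y, which binds the CCAAT box. RefSeq promoter windows (GRCh38.p14), each of 250 bases before and 50 after an annotated start, were found for 7 of the 9 enzymes. Stretches of 5 of them follow, 5′ to 3′ in the direction of the gene, with CCAAT or its complement ATTGG in capitals. MSMO1 and DHCR7 are shown as the enzymes with the largest falls in the middle and at the end of the route, NSDHL and EBP as those with small differences, and CYP51A1 because its window holds no such box. Each stretch ends on the base before the start site except that of NSDHL, which ends 71 bases before it.
CYP51A1, chr7:92134478-92134587, minus strand: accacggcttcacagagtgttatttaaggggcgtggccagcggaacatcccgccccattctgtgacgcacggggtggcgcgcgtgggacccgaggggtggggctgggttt
MSMO1, chr4:165327469-165327668, plus strand: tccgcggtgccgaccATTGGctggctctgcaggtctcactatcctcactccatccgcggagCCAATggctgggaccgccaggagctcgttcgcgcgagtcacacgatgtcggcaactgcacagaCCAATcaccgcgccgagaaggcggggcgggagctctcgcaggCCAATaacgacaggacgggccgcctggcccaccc
NSDHL, chrX:152830823-152830992, plus strand: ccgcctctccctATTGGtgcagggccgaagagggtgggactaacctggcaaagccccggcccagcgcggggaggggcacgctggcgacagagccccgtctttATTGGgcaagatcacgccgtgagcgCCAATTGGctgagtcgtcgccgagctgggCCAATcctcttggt
EBP, chrX:48521608-48521807, plus strand: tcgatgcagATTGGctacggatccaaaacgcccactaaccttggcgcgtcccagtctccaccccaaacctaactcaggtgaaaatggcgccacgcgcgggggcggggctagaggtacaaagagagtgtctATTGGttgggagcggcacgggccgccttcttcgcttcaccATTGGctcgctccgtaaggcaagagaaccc
DHCR7, chr11:71448394-71448503, minus strand: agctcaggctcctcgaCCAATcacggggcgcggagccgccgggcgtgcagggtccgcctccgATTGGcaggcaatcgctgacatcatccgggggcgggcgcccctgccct

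The letters CCAAT, read on both strands, stood in the windows of 6 of the 7 enzymes, LSS, MSMO1, NSDHL, EBP, SC5D and DHCR7, where 39.7% of 27305 genes have a window with them. MSMO1 had 4 such boxes, NSDHL 5, of which a pair overlap, EBP 3, DHCR7 2, and LSS and SC5D 1. DHCR7 also has a window at another annotated start, which held 0 such boxes. Its count and the stretch shown are from the window with more boxes. SC5D has a further window too, and each of its windows held 1. The number of boxes did not follow the size of the fall, since CYP51A1 had none and fell 2.05-fold while NSDHL and EBP had 5 and 3 and differed least. The Sp1 box GGGCGG stood in the windows of 6 of 7 enzymes, against 48.3% of genes, and the E box CACGTG in those of 2, LSS and SC5D, against 8.77%. The SREBP site written as TCACNCCAC stood in none of the 7 and in 1.39% of genes. A match is a description of the letters, and a missing match says only that these letters are not in this window. In these windows no match of 1 motif overlapped a match of another.

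SQLE, the squalene epoxidase and a rate-limiting enzyme of the route, was read by 4 probe sets that did not behave alike. At 209218_at the control arrays read 8.12, 8.06 and 8.04 and the arrays labelled S153E-RKIP 7.19, 7.07 and 7.11, with all 3 labelled arrays far below the lowest control. The difference was -0.95 (SE 0.063, limma adjusted p = 2.22e-04). At 213577_at, which has nearly the same control level, the values were 7.94, 7.99 and 8.07 against 7.72, 7.45 and 7.40. The groups again did not overlap, but S153E-RKIP replicate 1 stood above the other 2 of its group, and the difference was -0.48 (SE 0.091, adjusted p = 0.0541 over all probe sets).

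The remaining 2 probe sets of SQLE were dimmer, both with a mean below the median level of all probe sets (5.62). At 213562_s_at the values were 5.80, 5.98 and 5.90 in control and 4.98, 4.77 and 5.49 in the other group, with a difference of -0.81 (SE 0.16, adjusted p = 0.0631). The third labelled array is the high one there, in contrast to 213577_at, so the 2 probe sets do not share the array that stands apart. At 1557352_at the difference was -0.12 (adjusted p = 0.442). Read by 213577_at, the brightest, SQLE passed the gene fit (adjusted p = 0.0387), a call that leaving out 1 array ended in 5 of 6 cases, all but S153E-RKIP replicate 1, with an adjusted p of up to 0.171 without control replicate 3. At 209218_at the adjusted p stayed at 0.00507 or less whichever array was left out.

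LSS, which closes the sterol rings, was read by 202245_at at 9.50, 9.51 and 9.37 in control and 8.87, 8.83 and 8.80 on the arrays labelled S153E-RKIP. All 3 labelled arrays lay well below the lowest control, and the difference was -0.62 (SE 0.066, adjusted p = 0.00319). The probe set 211019_s_at gave nearly the same difference, -0.61 (SE 0.076, adjusted p = 0.00715), from 7.14 ± 0.088 to 6.53 ± 0.095 (SD, n = 3 each). Its adjusted p was 0.0535 without control replicate 1 and 0.0589 without S153E-RKIP replicate 2. The dim probe set 211018_at read 4.57 ± 0.092 and 4.53 ± 0.11 (SD, n = 3 each), and its groups overlapped.

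CYP51A1 encodes lanosterol demethylase, the first enzyme to remove a methyl group from lanosterol. At 202314_at the arrays read 10.05, 10.08 and 10.01 in control and 9.07, 8.93 and 9.04 in the other group, where every labelled array lay about the same distance below the controls. The difference was -1.04 (SE 0.065, adjusted p = 1.58e-04). At 216607_s_at it was -0.98 (SE 0.096, adjusted p = 0.00208), with wider spread on the labelled arrays, which read 8.80, 8.58 and 8.95. Because both also carry the symbol of LRRD1, the single probe set annotated to LRRD1 alone was read as well. It had a mean of 3.48 over the 6 arrays, below the median level, and a difference of 0.091 (adjusted p = 0.578).

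MSMO1, which oxidises methyl groups left on the sterol ring system, had the largest fall of the set. Its 1 probe set read 10.78, 10.78 and 10.73 in control and 9.34, 9.12 and 9.25 on the arrays labelled S153E-RKIP. The signal was 34.7% of the control signal, a difference of -1.53 (SE 0.072, adjusted p = 3.53e-05), and only 11 probe sets on the array had a lower difference. Its 95% confidence interval, -1.69 to -1.36, did not overlap that of any other probe set of the set. With any 1 array left out the difference stayed between -1.58 and -1.47.

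NSDHL, the dehydrogenase that works with MSMO1 to release the oxidised methyl group, fell less. At 209279_s_at the values were 8.86, 8.82 and 8.88 in control and 8.50, 8.23 and 8.29 in the other group, so replicate 1 was again the highest of the labelled arrays. The difference was -0.51 (SE 0.080, adjusted p = 0.0221), a call that was lost in 5 of the 6 cases with 1 array left out, again all but S153E-RKIP replicate 1, with an adjusted p of up to 0.132 without control replicate 1. At 215093_at, with nearly the same levels, the difference was -0.45 (SE 0.093) and missed the threshold (adjusted p = 0.0743). With the mean of both probe sets in the gene fit NSDHL was called (-0.48, adjusted p = 0.0191).

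EBP, the sterol isomerase, was the 1 enzyme with no call at any probe set. At 213787_s_at it read 9.30, 9.26 and 9.32 in control and 9.19, 8.92 and 9.10 on the arrays labelled S153E-RKIP, and at 202735_at 9.25, 9.02 and 9.21 against 9.03, 8.77 and 9.01. The groups were apart at the first and overlapped at the second. The differences were -0.22 at each (SE 0.078 and 0.094, adjusted p = 0.298 and 0.359), with 95% confidence intervals of -0.39 to -0.037 and -0.44 to -0.0091. A fall as large as that of LSS (-0.62) lies outside both intervals, while no change does not lie far outside either. At 213789_at and 231320_at the differences were -0.11 and 0.034 with overlapping groups.

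SC5D, the desaturase that adds a double bond after EBP has acted, read 9.82, 9.77 and 9.82 in control and 8.82, 8.55 and 8.82 in the other group at 211423_s_at. The labelled arrays lay about 1 log2 unit below the controls, replicate 2 lowest, with a difference of -1.08 (SE 0.083, adjusted p = 5.73e-04). At the dim 215064_at the difference was -0.30 (SE 0.11, adjusted p = 0.309), and with the mean of both probe sets SC5D had a difference of -0.69 in the gene fit and stayed called.

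DHCR7, the reductase that completes cholesterol, read 9.06, 9.15 and 9.09 in control and 8.04, 7.97 and 8.01 in the other group at 201790_s_at. Spread was small in both groups and the difference was -1.09 (SE 0.061, adjusted p = 7.53e-05). At 201791_s_at the control arrays held the identical value of 8.76, which leaves no measured spread there, and the labelled arrays read 8.01, 7.84 and 7.62. The difference was -0.93 (SE 0.095, adjusted p = 0.00263), with a standard error that borrows variance from other probe sets. Both probe sets stayed called whichever array was left out.

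**Figure D2:**
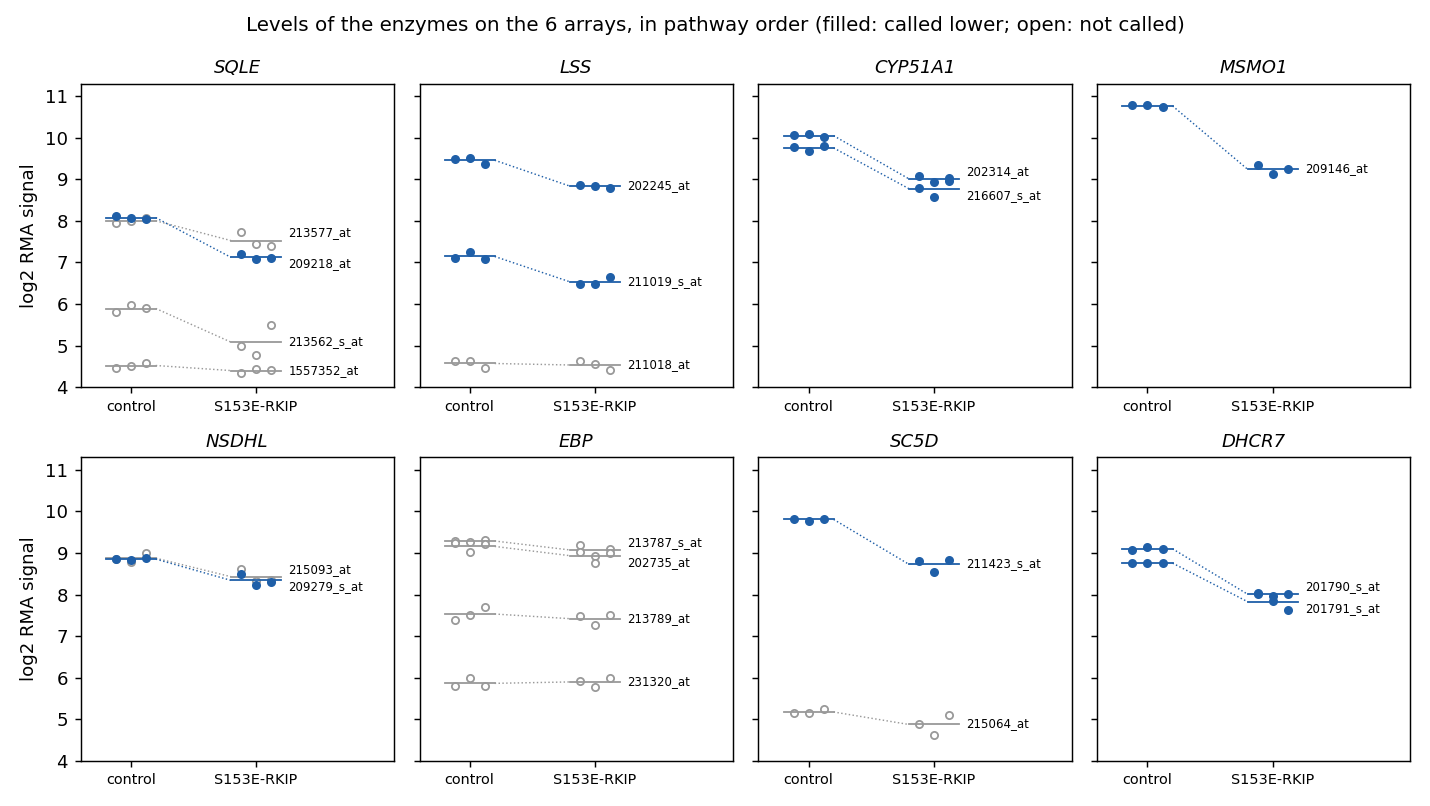
Level of each probe set on each of the 6 arrays, 1 panel per enzyme in pathway order, as log2 RMA signal. Points are arrays, horizontal lines are group means (n = 3) joined by dotted lines, and filled points mark probe sets called lower; in the MSMO1 panel the controls sit near 10.8 and the arrays labelled S153E-RKIP near 9.24. Probe sets bind with different strength, so heights cannot be compared between probe sets.

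Neighbouring steps were compared within each array, so that both enzymes were read on the same RNA. The difference in log2 signal between the brightest probe sets of 2 neighbours was taken on each array and set between the groups. The fall was larger in CYP51A1 than in LSS by 0.41, larger in MSMO1 than in CYP51A1 by 0.49 and larger in SC5D than in EBP by 0.86, without overlap of the groups in any of the 3. MSMO1 fell by 1.08 more than NSDHL, and NSDHL by 0.23 more than EBP, again without overlap. For SQLE against LSS (0.15) and SC5D against DHCR7 (0.015) the groups overlapped. The first of these depends on the probe set of SQLE. It used 213577_at, with a difference of -0.48 beside -0.62 for LSS, whereas 209218_at had one of -0.95. LSS was not compared with 209218_at in this way. An exact two-sided permutation test of 3 arrays against 3 cannot go below p = 0.10, which is the value of the 5 pairs without overlap (0.14 when adjusted over the 7 pairs), so none of these differences passes a threshold of 0.05. Within SQLE, the fall at 209218_at was larger than at 213577_at by 0.48, also without overlap (exact permutation p = 0.10, 0.30 adjusted over 12 pairs of probe sets of 1 gene).

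The 3 arrays labelled S153E-RKIP did not read the set equally low. Over the 10 probe sets called lower, the mean distance to the control mean was -0.86 on replicate 1, -1.02 on replicate 2 and -0.92 on replicate 3, while each control array lay within 0.018 of it. Replicate 2 was the lowest of the 3 in 8 of these 10 probe sets and replicate 1 the highest in 7. Over all 374 probe sets called lower, replicate 2 was the lowest in 45.2% and replicate 1 in 41.7%. Replicate 1 is also the array that stood apart from the other 2 of its group in a principal component analysis of all genes. Without it 12 of the 20 probe sets were called lower, beside 251 of all probe sets. Without replicate 2 it was 8, beside 137 of all probe sets, so the 2 counts moved in the same direction.

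**Figure D3:**
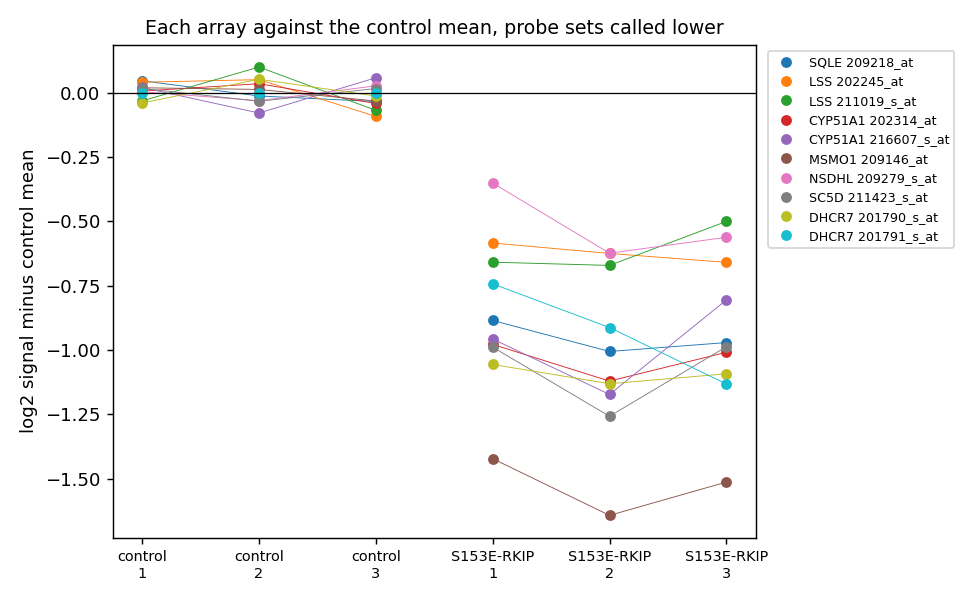
Distance of each array from the control mean for the 10 probe sets called lower, in log2 signal, 1 colour per probe set. Thin lines only join the points of a probe set within a group, since replicates have no order. All points of the arrays labelled S153E-RKIP lie between -1.64 and -0.35, and the control points lie between -0.092 and 0.10.

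The other genes of sterol metabolism were read from a list of 36, of which 31 have a probe set of their own, and 12 of the 31 were called lower and none higher in the gene fit (1.21% of all genes were called lower). With any 1 array but S153E-RKIP replicate 1 left out, 6 or 7 of the 31 were called. Calls over all genes fell as well, from 240 with all arrays to between 71 and 137 in these fits. Their median difference was -0.21, beside -0.62 for the 7 enzymes and 0.010 for all genes. Among 4 further genes of the arm after squalene, HSD17B7, a ketosteroid reductase that acts with NSDHL, fell 1.35-fold, and ERG28, a scaffold of the demethylation complex, fell 1.29-fold. TM7SF2 and LBR, a pair of sterol reductases that can act after CYP51A1, had differences of -0.22 (SE 0.079, adjusted p = 0.229) and -0.21 (SE 0.056, adjusted p = 0.139). HSD17B7 has only 1 probe set, whose probes may cross-hybridise, and its adjusted p was 0.0085, or 0.0542 without control replicate 3. The call of ERG28 (adjusted p = 0.0281) was lost in 5 of 6 cases with 1 array left out, with an adjusted p of up to 0.146. Averaged over its 3 probe sets the difference was -0.23 (adjusted p = 0.109), while 2 of the 3 were called lower in the probe set fit.

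Of 8 measured enzymes of the mevalonate arm, which feeds squalene synthesis, 4 were called lower. HMGCS1, which condenses acetyl units, fell 2.40-fold from 7.48 ± 0.061 to 6.21 ± 0.021 (SD, n = 3 each), and IDI1, an isomerase of isoprenoid units, fell 2.15-fold. ACAT2 and FDPS, at the start and end of that arm, fell 1.46-fold and 1.36-fold. IDI1 was read by a probe set whose probes may cross-hybridise. With probe sets of that kind removed its difference was -0.35 (adjusted p = 0.185), and averaged over its 4 probe sets it was -0.65 (adjusted p = 0.000825). The calls of ACAT2 and FDPS were each lost in 5 of 6 cases with 1 array left out, with adjusted p values of up to 0.204 and 0.145. The 1 probe set of ACAT2 was not called in the probe set fit, while that of FDPS was. MVK, PMVK, MVD and GGPS1 were not called, with differences from -0.32 to 0.042.

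INSIG1, which holds SREBP back and is itself a known SREBP target, had values of 10.82, 11.12 and 10.92 in control and 8.36, 8.18 and 8.30 on the arrays labelled S153E-RKIP, far apart at every array. Of 7 genes of SREBP control, INSIG1 fell 6.37-fold, SREBF2 1.58-fold and SREBF1 1.52-fold, while SCAP, the escort of SREBP, and MBTPS1 and MBTPS2, the proteases that release it, had differences between -0.034 and 0.027. The call of SREBF1 (adjusted p = 0.0286) was lost in 5 of 6 cases with 1 array left out, with an adjusted p of up to 0.159, and the mean over its 2 probe sets gave -0.30 and ended the call (adjusted p = 0.0630). For SREBF2 the mean over 3 probe sets gave -0.41 and stayed called (adjusted p = 0.0177). Of 4 measured genes of sterol uptake and transport, STARD4, a sterol carrier, fell 2.70-fold, NPC1 1.48-fold and NPC2 1.24-fold, the last 2 acting together in sterol export from lysosomes. LRP8, a lipoprotein receptor, had a difference of -0.41 (SE 0.10, adjusted p = 0.111) and was not called, although 1 of its 3 probe sets was called lower in the probe set fit. For NPC1 1 of 4 probe sets was called there, and averaged over the 4 its difference was -0.38 (adjusted p = 0.0442). The 1 probe set of NPC2 was not called there, and its call in the gene fit was lost in 5 of 6 cases with 1 array left out (adjusted p of up to 0.146). None of 8 measured genes of oxysterol response, esterification and efflux was called (limma), and 0 of them had an unadjusted p under 0.05, beside 3098 of the 19775 genes. Among them ABCA1, the exporter that sterol-loaded cells are known to raise, ranged from 5.16 on S153E-RKIP replicate 1 to 6.87 on replicate 2.

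**Figure D4:**
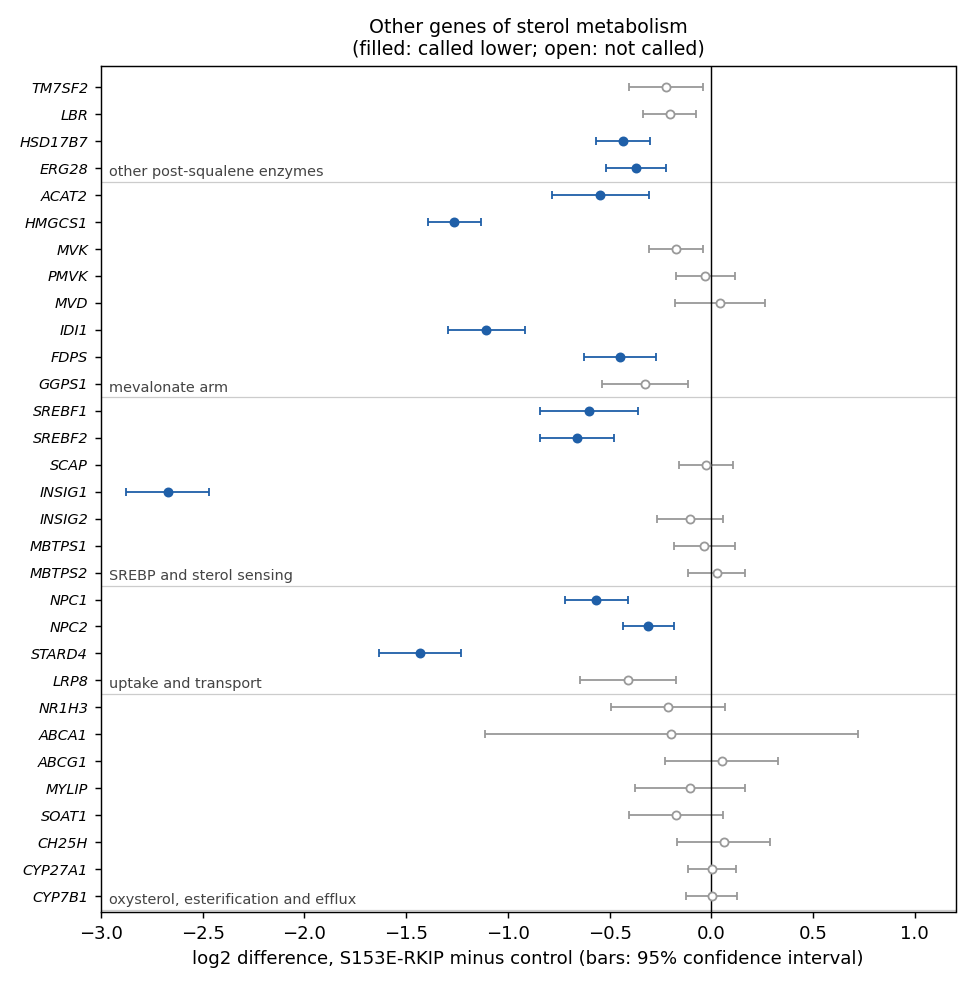
Difference between the arrays labelled S153E-RKIP and control for the 31 measured genes of sterol metabolism outside the set, grouped by role, on the log2 scale. Points are limma estimates from the brightest probe set of a gene, bars are 95% confidence intervals, and filled points were called lower at an adjusted p under 0.05. The 12 filled points lie in 4 of the 5 groups, and none of the 8 genes of oxysterol response, esterification and efflux is among them. Of these 8, NR1H3, ABCA1, ABCG1, CH25H and CYP7B1 read below the median level of all genes.

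Likeness of pattern was measured as the Pearson correlation over the 6 arrays with the mean of the 7 enzymes, among 225 other genes that differed by at least 0.5 between the groups. The 5 genes nearest the enzymes were JDP2 (r = 0.997), IDI1 (r = 0.996), NUAK1 (r = 0.996), PGM5 (r = 0.995) and TSPAN8 (r = 0.994). Of these only IDI1 is on the sterol list. JDP2, a transcription factor gene of the AP-1 group, had values of 7.37, 7.39 and 7.34 in control and 6.92, 6.74 and 6.82 on the labelled arrays. The correlation rests on the gap between the groups, which any gene with a clear fall shares. The enzymes themselves had values from 0.875 for EBP to 0.997 for MSMO1, but each enzyme is part of the mean it was correlated with.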

How the data were processed

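Transcript levels were measured on 6 arrays, 3 per group, grouped by title. The values deposited by the authors are log2 signals, 1 per probe set and array. The submitters' processing notes name RMA, a method that subtracts background, gives all arrays 1 distribution and fits 1 value to each probe set, which compresses falls of dim transcripts. The sources used here give no version. No scanner output was used, so signal over background was not measured, and the number of arrays limits the precision.

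The table holds 54675 probe sets, of which 62 control probe sets were left out. Array medians ran from 5.60 to 5.67 and no pair of arrays was identical. Genes were named from the platform annotation. Limma 3.58.1 in R 4.3.3 (lmFit, eBayes without trend, two-sided) was fitted to all 54613 probe sets and to 19775 genes, each read by its brightest probe set with 1 symbol, with Benjamini-Hochberg adjustment over all. Within-array differences were tested by exact permutation in scipy 1.17.1. The fit was tested on simulated data with known changes. Of 50 probe sets changed 1.3-fold it called 11, of 50 changed 1.5-fold 33, and of 50 changed 2-fold 42. For genes these counts were 24, 41 and 48 of 50. A small change that was not called may therefore have been missed. The members, lists, tests and named genes (all members, called genes of the sterol list with TM7SF2, LBR and HSD17B7, and the 5 genes nearest in pattern) were chosen with earlier results of these data known. Alternatives were other probe set rules, filters, normalisations, variance models, a stricter threshold, the replicate block and leaving out each array.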

Additional observations from a re-analysis of the deposited data

How the results depend on the processing

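Of the 20 probe sets, the 5 with the smallest adjusted p (MSMO1, DHCR7 201790_s_at, CYP51A1 202314_at, SQLE 209218_at and SC5D 211423_s_at) stayed called lower under every alternative run. So did CYP51A1 216607_s_at, DHCR7 201791_s_at and LSS 202245_at. The count of probe sets called lower ran from 8 to 13 around 10, and that of enzymes in the gene fit from 4 to 6 around 5. In the same fits the calls over all probe sets ran from 122 to 659 around 374. Those over all genes ran from 71 to 417 around 240. The number of other sterol genes called lower ran from 6 to 14 around 12, with 6 without control replicate 3, up to 12 with another array left out and 14 with trend and robust estimation, and was 7 at an adjusted p under 0.01. Near 0, the difference of LSS 211018_at ran from -0.089 to 0.023 with 1 array left out, positive only without S153E-RKIP replicate 3. That of EBP 231320_at ran from -0.013, again without that array, to 0.097 and was -0.0026 with equal medians, and none of these was called. With only the bases before the start site, 1 of 7 enzymes held the E box. Whether the replicate numbers pair the arrays cannot be told from these values. The deviations of same-numbered arrays correlated at 0.13, 0.26 and -0.044 over genes, and those of differently numbered arrays from -0.27 to 0.13. With the replicate block 11 probe sets and 4 enzymes were called lower, SQLE being lost (adjusted p = 0.0669), and 10 of the other sterol genes, SREBF1 (adjusted p = 0.0572) and NPC2 (adjusted p = 0.0609) being lost. With that block 364 of all probe sets and 207 of all genes were called lower.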
